A study of Mus musculus with 47 samples.

Results

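The 40 genes described here encode the machinery that places the histone variant H3.3 into chromatin and the proteins that keep heterochromatin silent. They were taken by symbol from the deposited table of read counts, which lists 20456 genes. Each symbol was found once, and all 40 genes passed the filter on low counts. The samples were livers, lungs and brains of C57BL/6 mouse embryos at E18.5, by the labels. The alleles were made in C57BL/6N zygotes and the founders were crossed to C57BL/6J mice, so that the background is mixed. The mutants were homozygous for a Daxx allele with alanine in place of a tyrosine (Y130A) or of a serine (S226A), the number being the residue, and the controls were wild-type (WT) littermates from crosses of heterozygotes. The substitutions were introduced with CRISPR/Cas9 and a donor DNA that also carries silent changes, and they are constitutive, so that every cell of a mutant embryo has them. Y130A was designed to break the contact of Daxx with Atrx and S226A that with H3.3. Each genotype, tissue and litter set had 4 libraries, except for 3 WT lungs of the Y130A litters, where the study removed an outlier. This gave 47 libraries in 12 groups. They came from 17 embryos, most of which gave all 3 tissues, so that the tissues compared are not independent samples. Where values of mutants and WT littermates are listed side by side, the WT values follow the litter order of the mutants, and the litter without a WT lung comes last. The total was 15722147 to 26190403 counts per library in the S226A litters and 36351738 to 54885020 in the Y130A litters.

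H3.3 replaces the replication-coupled H3 outside S phase. The HIRA complex deposits it at genes, and Daxx with the ATPase Atrx deposits it at telomeres, pericentromeric repeats and endogenous retroviruses. Asf1a and Asf1b pass H3 to HIRA and to CAF-1, which loads new H3 behind the replication fork. Silencing at repeats runs through the co-repressor Trim28, H3K9 methyltransferases, the HP1 proteins that read the mark, the HUSH complex, DNA methylation, and the SUMO-rich PML bodies in which Daxx is found. The questions were how the levels of these genes differ between tissues of WT embryos, and whether any of them changed in embryos whose Daxx had lost a partner.

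The altered codons are shown because they define the groups. Daxx lies at chr17:33909414-33915590, plus strand (GRCm38), and both codons are in exon 3 of 8 of an annotated transcript with 740 codons. The Y130A codon is at chr17:33911400-33911402 and the S226A codon at chr17:33911688-33911690. The reference coding strand is given with 30 bases on either side and the altered codon in capitals. A point substitution does not alter a gene count, so that the counts cannot check the genotype labels.
Daxx, Y130A codon: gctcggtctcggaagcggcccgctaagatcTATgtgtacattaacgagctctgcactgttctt
Daxx, S226A codon: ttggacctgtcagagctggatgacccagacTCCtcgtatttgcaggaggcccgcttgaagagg

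H3.3 comes from H3f3a (chr1:180800832-180813943, minus strand) and from H3f3b (chr11:116021912-116027962, minus strand). Their coding sequences of 408 bases differ at 95 bases (76.7% identical) and in 83 of 136 codons, with 0 differing residues. The genes can therefore be told apart by their reads although the protein is the same. The first 60 coding bases are given with the differences in capitals.
H3f3a: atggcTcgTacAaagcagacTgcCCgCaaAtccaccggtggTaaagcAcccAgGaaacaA
H3f3b: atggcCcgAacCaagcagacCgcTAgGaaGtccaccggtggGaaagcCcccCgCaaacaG

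Promoters (RefSeq, GRCm38.p6, 250 bases before to 50 after the start site) were searched on both strands for the E2F-type words TTTCCCGC, TTTCGCGC, TTTGCCGC and TTTGGCGC, which occur in genes used for DNA replication. At least 1 word was present in 5 of the 39 members with an entry (Cbx3, Suv39h1, Dnmt1, Uhrf1 and Hells) and in 2.6% of all 27025 genes with an entry. The promoters of 4 members that are described below beside proliferation markers are shown, with E2F-type words in capitals. The window of Asf1b holds none of these words, and those of Dnmt1 and Uhrf1 are 1 of 3 and 1 of 2 listed for the gene. An ISRE-type word (GAAA, any 2 bases, GAAA), of a kind found in genes induced by interferon, was present in 1 member (Cbx5) and in 3.99% of all genes. A match is a description of letters only.
Asf1b, chr8:83955444-83955743, plus strand: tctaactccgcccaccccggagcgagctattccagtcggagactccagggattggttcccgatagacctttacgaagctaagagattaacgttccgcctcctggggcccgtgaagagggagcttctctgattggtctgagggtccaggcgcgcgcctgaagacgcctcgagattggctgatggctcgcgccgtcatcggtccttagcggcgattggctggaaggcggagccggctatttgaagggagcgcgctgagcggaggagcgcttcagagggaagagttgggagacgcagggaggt
Dnmt1, chr9:20952574-20952873, minus strand: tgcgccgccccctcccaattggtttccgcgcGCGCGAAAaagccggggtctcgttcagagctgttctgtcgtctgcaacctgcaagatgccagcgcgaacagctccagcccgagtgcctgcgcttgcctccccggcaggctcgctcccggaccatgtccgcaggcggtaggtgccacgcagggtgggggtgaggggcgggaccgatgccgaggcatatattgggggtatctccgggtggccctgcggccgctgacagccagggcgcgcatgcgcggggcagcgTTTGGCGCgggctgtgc
Uhrf1, chr17:56304063-56304362, plus strand: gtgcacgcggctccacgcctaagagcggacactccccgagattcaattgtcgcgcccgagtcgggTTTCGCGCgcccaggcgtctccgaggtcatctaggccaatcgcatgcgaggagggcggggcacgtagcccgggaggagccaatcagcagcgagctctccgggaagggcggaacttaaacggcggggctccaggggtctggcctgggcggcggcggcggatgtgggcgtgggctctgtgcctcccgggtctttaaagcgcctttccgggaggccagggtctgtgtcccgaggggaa
Hells, chr19:38930740-38931039, plus strand: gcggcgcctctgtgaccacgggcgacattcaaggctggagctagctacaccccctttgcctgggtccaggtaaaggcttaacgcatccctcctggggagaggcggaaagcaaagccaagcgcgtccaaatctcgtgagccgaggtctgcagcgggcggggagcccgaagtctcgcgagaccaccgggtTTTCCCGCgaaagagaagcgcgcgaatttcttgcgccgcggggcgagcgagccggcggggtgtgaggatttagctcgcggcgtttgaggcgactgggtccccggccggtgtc

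The tissue labels were checked against marker genes. Levels are given in CPM, counts per 1000000 reads, with library sizes scaled by TMM, which assumes that most genes are level. Summed hepatocyte markers were 150000 to 228000 CPM in livers and at most 1320 elsewhere, lung epithelial markers 7260 to 11800 in lungs and at most 52.4 elsewhere, and neural markers 5700 to 7010 in brains and at most 45.2 elsewhere. Squamous epithelial markers, foreign to liver, summed to 1000 CPM in WT liver of the S226A litters replicate 2 and to 673 in Y130A liver replicate 1, against at most 9.98 in the other livers. In lungs the same markers summed to 2.19 to 197 CPM. Some members share exon bases with other genes. This holds for 44.7% of those of Hira (Gm28539, same strand), 52.5% of Chaf1a (Ubxn6, opposite strand) and 48.0% of Asf1a (Mcm9, opposite strand). Smaller parts are shared by H3f3a (18.2%), Suv39h1 (14.6%), Mphosph8 (10.7%), Suv39h2 (8.1%) and Morc2a (7.5%) with genes on the opposite strand and by Sumo3 (9.5%) with a gene on the same strand. Reads in a part shared on the same strand cannot be told apart under any strand setting. The setting used is not given in the sources used here, so that the levels of all these genes are uncertain. In bulk tissue, fewer cells of a type and less RNA per cell cannot be told apart.

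Among WT tissues, 18 of the 40 genes were highest in liver, 19 in brain and 3 in lung, against 33.6%, 39.8% and 26.6% of all genes tested. Wide gaps in favour of liver were found for Asf1b, Uhrf1 and Chaf1a, which act with DNA replication, and the PML body genes Pml and Sp100. Gaps in favour of brain were found for the deacetylase Hdac2, the demethylase Kdm1a and the methyltransferase Ehmt2. At an adjusted p below 0.01 and a log2 difference beyond 1 (edgeR's quasi-likelihood test, two-sided), 11 members were higher in liver than in lung (19.5% of all 16892 genes tested were) and 0 lower (25.2% of all genes). Against brain, 10 were higher in liver (27.5% of all genes) and 4 lower (30.2%). Between lung and brain, 5 were higher in lung (26.4%) and 4 lower (23.5%). For the 40 genes these shares are 27.5% and 0%, 25% and 10%, and 12.5% and 10%. The liver comparisons depend on the scaling. With total counts alone, the median of all genes moved from -0.08 to -0.71 against lung and from -0.08 to -0.66 against brain. Against lung, 5 members were then called higher in liver (13.3% of all genes) and 8 lower (37.6%). Against brain there were 7 higher (21.3%) and 17 lower (40.7%). Of the members called under TMM, 5 of 11 and 11 of 14 were called again, and none of those called under TMM changed sign. Of all 40, however, 16 changed sign against lung (Daxx, H3f3a, Ubn1, Ubn2, Cabin1, Asf1a, Trim28, Setdb1, Atf7ip, Mphosph8, Pphln1, Morc3, Cbx3, Smchd1, Hdac1 and Sumo3) and 11 against brain (Daxx, H3f3a, Ubn2, Cabin1, Asf1a, Atf7ip, Pphln1, Morc3, Suv39h1, Dnmt1 and Smchd1), so that moderate differences of these genes from liver have a direction only under a given scaling. No member changed sign between lung and brain (0 of 40). With total counts 9 of the 40 were highest in liver, 23 in brain and 8 in lung, against 20.5%, 44.1% and 35.3% of all genes tested. With the embryo as a block the counts were 11, 14 and 9 for the 3 tissue comparisons, as without it.

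**Figure D1:**
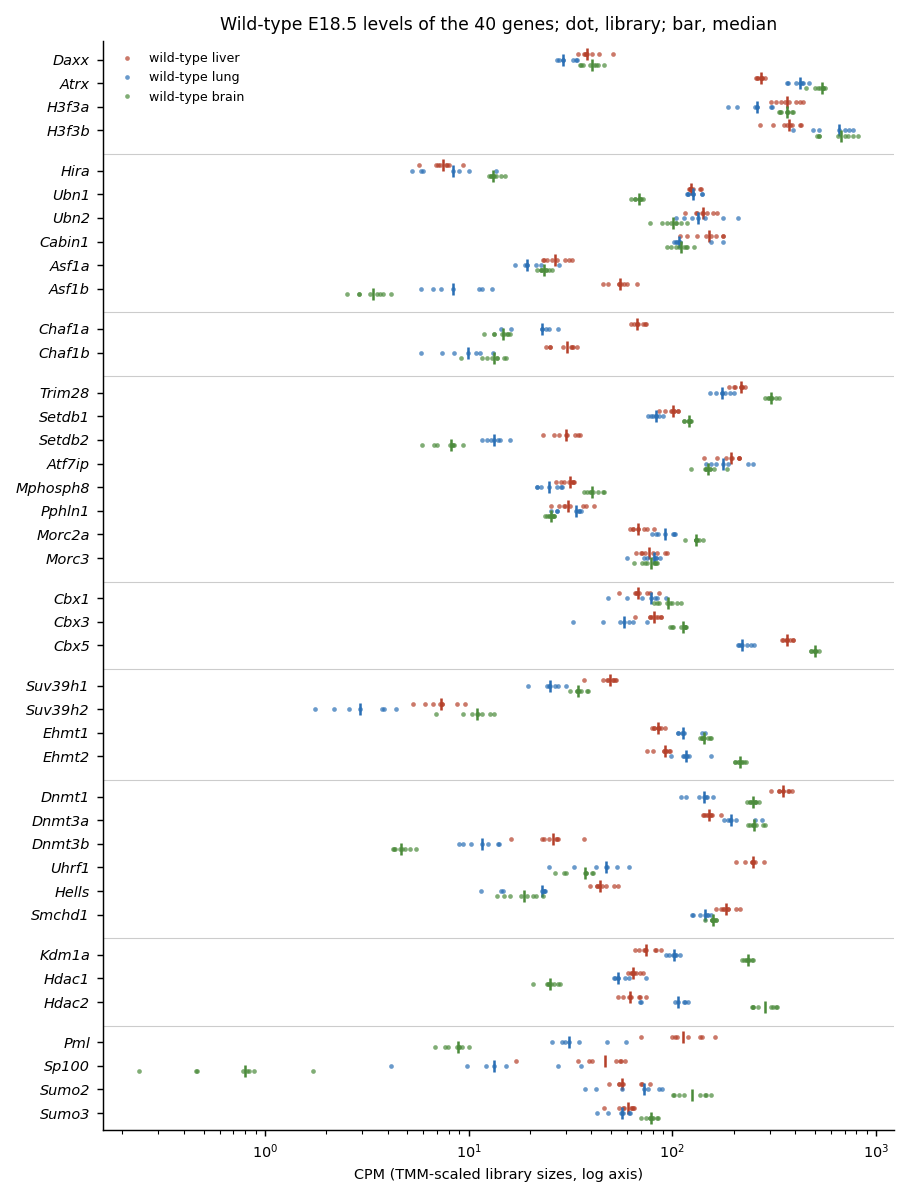
Level of each of the 40 genes in WT liver (red, n = 8), lung (blue, n = 7) and brain (green, n = 8) in CPM on a log axis, with a dot for each library and a bar at the median, grouped by role. Asf1b, Uhrf1, Pml and Sp100 are spread widely with liver highest, Hdac2 and Kdm1a are highest in brain, and the tissues overlap for Morc3.

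H3.3 and the chaperones Daxx and Atrx differed moderately between tissues. Daxx was at 34.5 to 50.9 CPM in WT livers (median 37.9), 35.2 to 46.2 in brains (median 40.4) and 27.2 to 34.2 in lungs (median 29.2). Liver and brain were not separated (log2 difference 0.00, 95% interval -0.12 to 0.13), and every liver and brain lay above every lung (liver minus lung 0.38, 0.24 to 0.51), but with total counts alone liver lay below lung (-0.25, adjusted p 0.00102, edgeR) and below brain (-0.58, adjusted p 1.4e-10). Atrx was at 454 to 560.1 CPM in brains, 366 to 467 in lungs and 258 to 285 in livers, and every lung lay above every liver. Its level in liver was 0.96 log2 units below brain (adjusted p 5.8e-22) and 0.63 below lung. H3f3a had medians of 364 CPM in liver, 364 in brain and 261 in lung, and liver and brain were not separated (adjusted p 0.635), while with total counts the differences of liver were -0.10 from lung and -0.55 from brain (adjusted p 2.6e-08, edgeR). H3f3b had medians of 674 CPM in brain, 657 in lung and 372 in liver, and brain and lung were not separated (adjusted p 0.478).

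Levels of different genes can be compared only per length. Per kilobase of merged exons (RPKM), H3f3b and H3f3a ranked first and second of the 40 genes in all 3 tissues. H3f3b had a median of 125 RPKM in liver, 221 in lung and 226.4 in brain, and H3f3a of 104, 74.4 and 104. Next came Uhrf1 in liver (58.04 RPKM), Trim28 in lung (42.2) and Trim28 in brain (73.2). Merged exons include rare isoforms and are long for Atrx, Ubn2, Atf7ip and Smchd1, which lowers their RPKM. The ratio of H3f3b to H3f3a was 0.988 to 1.36 in WT livers, 1.87 to 3.48 in lungs and 1.58 to 2.50 in brains.

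Within the HIRA complex and Asf1, partners had different orders of tissues. Hira (chr16:18877037-18970309, plus strand), the scaffold of the complex, was at 12.6 to 15.2 CPM in brains, 5.24 to 13.6 in lungs and 5.68 to 9.34 in livers. Brain was 0.82 log2 units above lung, and liver and lung were not separated (difference -0.03, 95% interval -0.24 to 0.18), although with total counts liver was below lung (-0.66, adjusted p 8.1e-07, edgeR). The litter sets went opposite ways under TMM. Mean Hira was 10.3 CPM in lung and 7.85 in liver in WT of the S226A litters, and 5.68 and 7.10 in WT of the Y130A litters. Ubn1, a subunit of the same complex, had medians of 126 CPM in lung, 123 in liver and 68.6 in brain, and the liver to lung difference was 0.00 under TMM and -0.63 under total counts. Asf1b (chr8:83955507-83970197, plus strand), the form of Asf1 linked to dividing cells, was at 45.8 to 66.7 CPM in livers, 5.81 to 13.00 in lungs and 2.52 to 4.16 in brains, without overlap. It was 2.59 log2 units higher in liver than in lung and 4.06 higher than in brain (95% interval 3.83 to 4.28). Asf1a stayed between 16.8 and 32.03 CPM in all 23 WT libraries. The ratio of Asf1a to Asf1b per kilobase was thus 0.262 to 0.356 in livers, 0.930 to 2.67 in lungs and 3.82 to 5.78 in brains.

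CAF-1 and Uhrf1 were also highest in liver, under both scalings. The CAF-1 subunit Chaf1a had medians of 67.1 CPM in liver, 22.9 in lung and 14.7 in brain, and Chaf1b of 30.5, 9.91 and 13.3. Uhrf1, which brings Dnmt1 to hemimethylated DNA, was at 206 to 282 CPM in livers, 24.8 to 61.04 in lungs and 26.6 to 40.96 in brains. The maintenance methyltransferase Dnmt1 (chr9:20907209-20959888, minus strand) was at 306 to 386 CPM in livers, 233 to 265 in brains and 110 to 158 in lungs, without overlap, but its difference between liver and brain (0.49) turned with total counts (-0.10, adjusted p 0.0945, edgeR). The remodeller Hells was 1.24 log2 units higher in liver than in lung, and lung and brain were not separated (adjusted p 0.464). The de novo methyltransferases had opposite orders, with medians in liver, lung and brain of 151, 194 and 249.9 CPM for Dnmt3a and of 25.9, 11.6 and 4.67 for Dnmt3b. The summed level of 16 proliferation markers was 5260 to 7340 CPM in livers, 742 to 1700 in lungs and 606 to 760 in brains, and its part in these tissue differences was not tested.

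Of the 15 genes for Trim28, Setdb1 and HUSH, HP1 and H3K9 methyltransferases, 10 (66.7%) had their highest median in brain, against 39.8% of all genes tested. Setdb2, Atf7ip and Suv39h1 were highest in liver, and Pphln1 and Morc3 in lung, but with total counts Atf7ip was highest in lung and Suv39h1 in brain. Under that scaling 73.3% of the 15 were highest in brain, against 44.1% of all genes. Ehmt2 alone of these was called higher in brain than in liver at a log2 difference beyond 1, and Cbx5 and Suv39h2 were called higher in brain than in lung. Trim28, which recruits Setdb1, had medians of 304 CPM in brain, 216 in liver and 176 in lung, and Setdb1 of 120.3, 101 and 82.8, and with total counts liver lay below lung for both (-0.38 and -0.36). Setdb2 had its highest median in liver (30.2 CPM, against 13.3 in lung and 8.19 in brain). For the HUSH subunit Mphosph8 and the ATPase Morc2a, every brain lay above every other WT library. Morc3 (chr16:93832121-93876073, plus strand), an ATPase found at PML bodies, had medians of 81.6 CPM in lung, 78.1 in brain and 77.1 in liver, and neighbours in this order were not separated (adjusted p 0.671 and 0.474), although with total counts liver was below brain (-0.54, adjusted p 1.0e-11, edgeR). HP1 alpha (Cbx5) had medians of 500 CPM in brain, 364 in liver and 219 in lung, without overlap of libraries. Suv39h2 was at 6.89 to 13.4 CPM in brains, 5.34 to 9.64 in livers and 1.75 to 4.39 in lungs. Ehmt2 was 1.26 log2 units higher in brain than in liver and 0.85 higher than in lung.

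The paired deacetylases Hdac1 and Hdac2 differed in order, with brain lowest for Hdac1 and highest for Hdac2. Hdac2 was at 247 to 327 CPM in brains, 69.6 to 119 in lungs and 54.2 to 73.8 in livers, and Hdac1 at 20.8 to 28.1, 51.6 to 74.3 and 60.5 to 71.5, where the difference between liver and lung turned with total counts (0.18 and -0.45). The ratio of Hdac1 to Hdac2 per kilobase was 1.12 to 1.59 in livers, 0.589 to 1.38 in lungs and 0.101 to 0.134 in brains. The demethylase Kdm1a was 1.63 log2 units higher in brain than in liver and 1.21 higher than in lung. The PML body genes Pml and Sp100 were lowest in brain. Pml was at 70.4 to 161 CPM in livers, 25.5 to 59.2 in lungs and 6.83 to 10.1 in brains, and Sp100 at 17.1 to 58.6, 4.18 to 35.6 and 0.240 to 1.73. Sp100 was 5.85 log2 units higher in liver than in brain (95% interval 5.29 to 6.41), the widest tissue difference among the 40 genes. Sumo2 had medians of 125 CPM in brain, 72.4 in lung and 56.9 in liver.

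**Figure D2:**
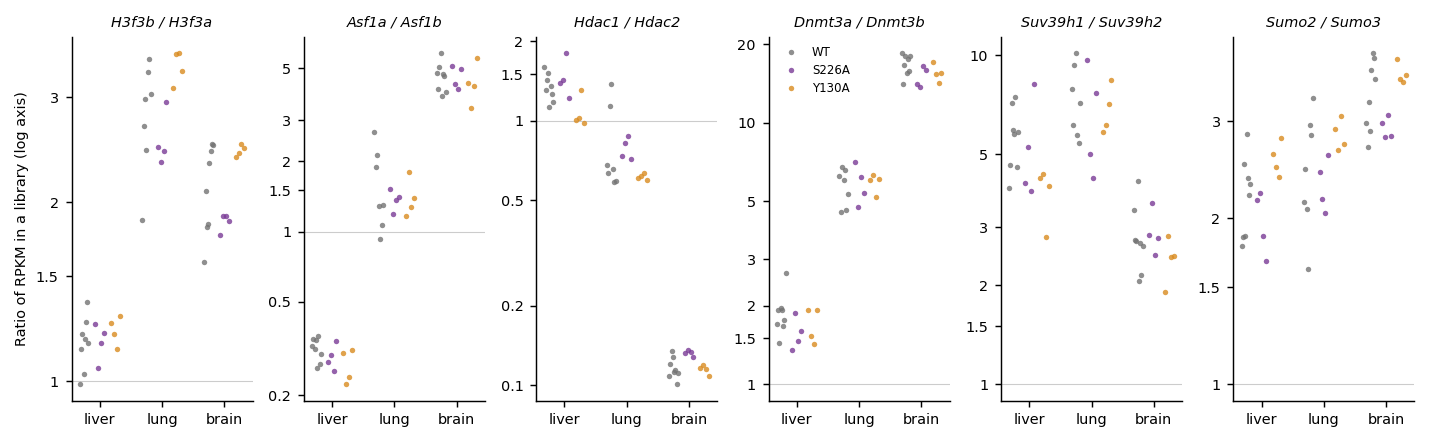
Ratio of RPKM between paralogous members in each library on a log axis, by tissue, for WT (grey), S226A (purple) and Y130A (orange). The tissues are apart for Asf1a to Asf1b and for Dnmt3a to Dnmt3b, Hdac1 to Hdac2 is lowest in brain, and for that pair 1 S226A liver (1.80) lies above the WT livers (1.12 to 1.59) and the Y130A livers reach below them (0.982 to 1.31).

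In the mutants few of the 40 genes were called, and the changes were small. At an adjusted p below 0.05, 1 member was called in S226A liver (11.7% of all genes tested), 2 in S226A lung (1.88%) and 0 in S226A brain (0.243%). In Y130A, 0 were called in liver (0.272%), 0 in lung (0.0178%) and 0 in brain (0.00592%). Where edgeR called none, DESeq2 called 0 as well, and the members with an unadjusted p below 0.05 numbered 0 in S226A brain (2.27% of all genes), 2 in Y130A liver (9.22%), 2 in Y130A lung (2.92%) and 1 in Y130A brain (2.22%). Under stringent criteria (adjusted p below 0.01, log2 fold change beyond 1, standard error below 1) edgeR and DESeq2 called 0 members in each of the 6 comparisons, against 2.1% of all genes in S226A liver, 0.302% in S226A lung, 0.124% in S226A brain, 0.077% in Y130A liver, 0.0% in Y130A lung and 0.0% in Y130A brain. In S226A liver 6 members (15%) had an unadjusted p below 0.05, as had 24.7% of all genes.

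The intervals give the size of change that could have been missed. Of the 240 tests of members against WT littermates, 213 had a 95% interval within 0.5 log2 units of 0 (1.41-fold) and 235 within 1 unit. The 5 that reached further were of Suv39h2 in Y130A liver and S226A lung, and of Sp100 in Y130A lung and in the brains of both mutants. The largest fitted change was that of Suv39h2 in Y130A liver, 0.62 (95% interval 0.19 to 1.05), from 6.69 ± 0.949 CPM in WT to 10.3 ± 3.06 in Y130A (SD, n = 4). It was not called (adjusted p 0.241, edgeR). Y130A livers replicates 1 to 4 were at 8.94, 8.72, 14.8 and 8.57 CPM and their WT littermates at 7.27, 7.43, 5.34 and 6.71, and without Y130A liver replicate 3 the change was 0.38 (adjusted p 0.593, edgeR).

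**Figure D3:**
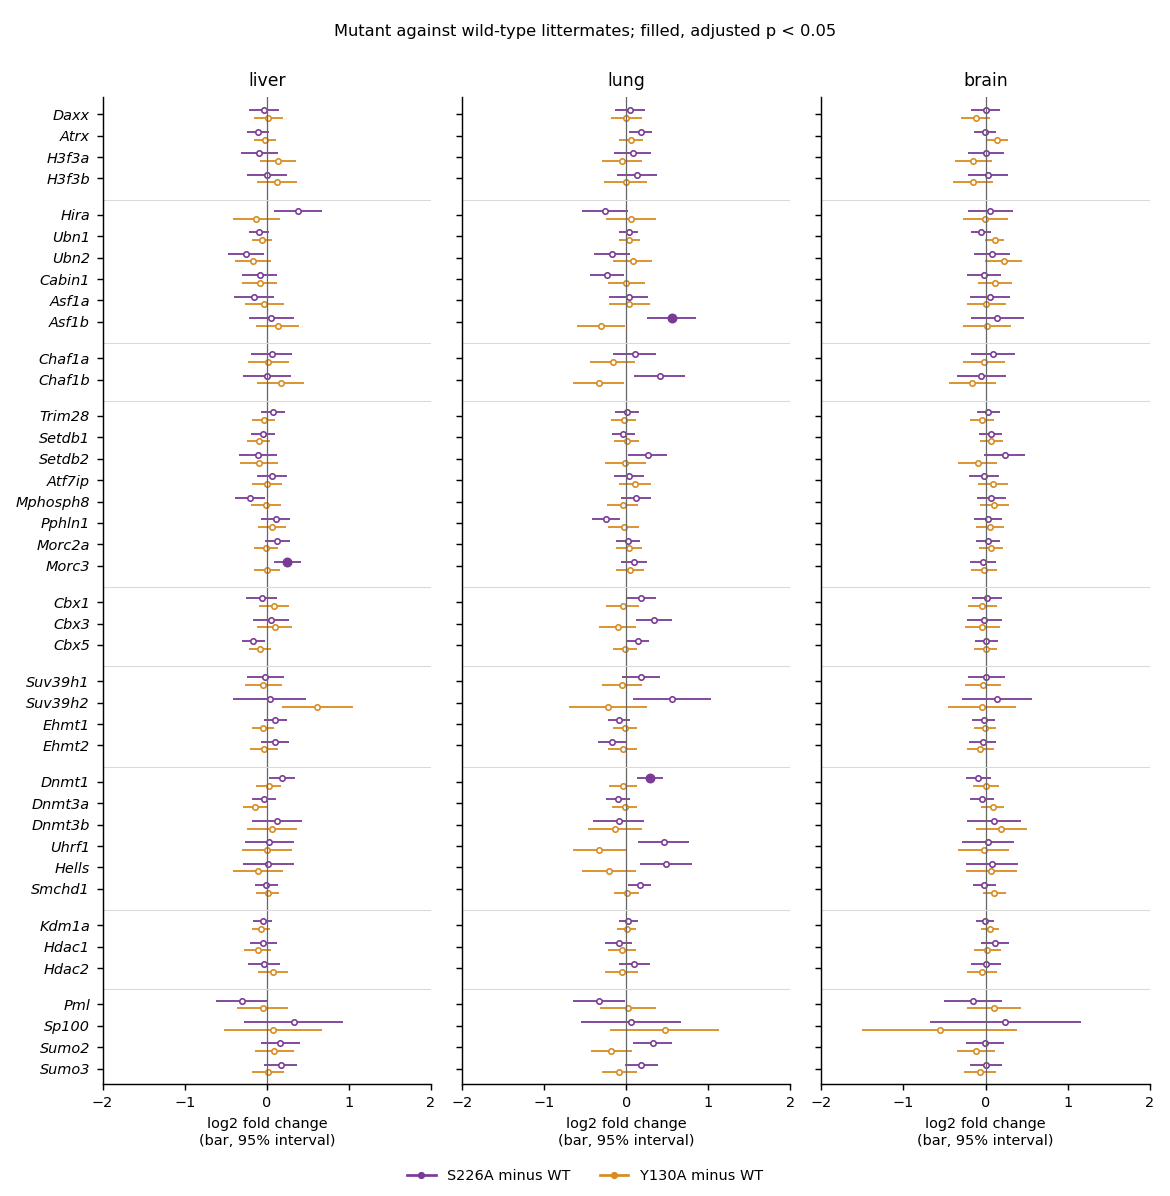
Log2 fold change of each of the 40 genes in S226A (purple) and Y130A (orange) against WT littermates in liver, lung and brain, with 95% intervals. The filled points, with an adjusted p below 0.05, are Morc3 in S226A liver and Asf1b and Dnmt1 in S226A lung.

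Daxx itself was not called in any tissue of either mutant. In S226A livers it was at 39.6, 43.5, 34.9 and 42.7 CPM, against 37.3, 36.8, 50.9 and 40.5 in WT littermates, and in Y130A livers at 43.6, 37.9, 37.3 and 37.1, against 34.5, 38.04, 37.7 and 43.7. S226A lungs had 30.6, 33.3, 28.3 and 28.2 CPM and their WT littermates 32.6, 27.9, 28.9 and 27.2. Y130A lungs had 32.5, 32.1, 33.1 and 31.8, against 29.2, 34.2 and 33.6 in 3 WT lungs. The mutant and WT ranges overlapped in both tissues. In brain the values were 36.9, 35.1, 39.2 and 38.04 CPM in S226A against 42.1, 35.2, 36.3 and 35.5, and 37.3, 39.2, 40.9 and 39.3 in Y130A against 39.5, 43.03, 46.2 and 41.3, again with overlap. Within litters, Daxx was lower in the Y130A brain than in the WT brain in 4 of 4 litters, and with litter as a block it was still not called (log2 fold change -0.12, adjusted p 0.198, edgeR). In Y130A brain 13 of the 40 genes (32.5%, against 24.8% of all genes tested) went 1 way in all 4 litters, as did 8 of the 40 genes (20%, against 25.3% of all) in S226A liver, 6 of the 40 genes (15%, against 12.8% of all) in Y130A liver and 12 of the 40 genes (30%, against 17.3% of all) in S226A lung. In S226A brain 6 did so (15%, against 10.4% of all), and in Y130A lung 15 went 1 way in all 3 litters (37.5%, against 23.8% of all). The log2 fold changes of Daxx lay between -0.12 (Y130A brain, 95% interval -0.30 to 0.06) and 0.04 (S226A lung, -0.14 to 0.23). These are RNA levels. For the protein, the study reports more Daxx in Y130A and less in S226A, most clearly in embryonic fibroblasts.

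Atrx, the ATPase partner of Daxx, was not called either. It was at 255, 267, 230.1 and 246 CPM in S226A livers against 260, 271, 258 and 285 in WT, and at 274, 278, 252 and 261 in Y130A livers against 275, 274, 262 and 271. In S226A lungs it was at 446, 456, 454 and 422 CPM against 406, 436, 368 and 366 (log2 fold change 0.17, 95% interval 0.04 to 0.31, adjusted p 0.165, edgeR). Only the lowest S226A lung and the highest WT lung overlapped there. Y130A lungs had 459.5, 478, 422 and 478 CPM of Atrx, against 467, 431 and 424. In brain it was at 532, 499.7, 519 and 579 CPM in S226A against 532, 518, 547 and 548, and at 636, 553, 539.8 and 539.9 in Y130A against 546, 560.1, 454 and 501 (log2 fold change 0.14, 0.00 to 0.27, adjusted p 1.0, edgeR). These brain values overlapped in both sets. Within litters, Atrx was lower in 4 of 4 S226A livers (adjusted p 0.453 with litter as a block, edgeR) and higher in 4 of 4 S226A lungs (0.55) and 3 of 4 Y130A brains (0.14).

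The H3.3 genes had no call in S226A tissues. H3f3a was at 321, 372, 342 and 328 CPM in S226A livers and 321, 403, 372 and 356 in WT (log2 fold change -0.09, 95% interval -0.32 to 0.13), and H3f3b at 340.2, 332, 337 and 336 and 269, 387, 379.6 and 311 (0.00, -0.25 to 0.24). In lung H3f3a was at 261, 312, 225 and 267 CPM in S226A and 307, 306, 207 and 187 in WT, and H3f3b at 548, 618, 466 and 669.6 and 488, 699, 526 and 389. In brain H3f3a was at 349, 365, 352 and 362 CPM in S226A and 389.5, 365, 333 and 336 in WT, and H3f3b at 522, 586, 566 and 571 and 524, 646, 514 and 525. Mutant and WT overlapped for both genes in each tissue, and the WT lungs were the most scattered. The lowest WT lung for both genes was replicate 4 (187 and 389 CPM). The study names a WT lung of this comparison as a possible outlier in its repeat analysis, by a label close to that of replicate 4.

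In Y130A tissues the H3.3 genes were not called either. H3f3a was at 440.3, 439, 374 and 402 CPM in Y130A livers and 437, 424, 342 and 305 in WT, and H3f3b at 467, 448, 359 and 439 and 429, 425, 365 and 352. In lung H3f3a was at 248, 252, 241 and 258 CPM in Y130A and 261, 261 and 254 in WT, and H3f3b at 656, 759.6, 729.8 and 727 and 734, 771 and 657. These ranges overlapped. In Y130A brains H3f3a was at 313, 319, 337 and 343 CPM against 368, 339, 385 and 364 (log2 fold change -0.15, 95% interval -0.37 to 0.07), with 1 Y130A brain above the lowest WT brain, and H3f3b at 632, 656, 717 and 718 against 726, 701, 818 and 769.8 (-0.15, -0.39 to 0.10), with overlap. Within litters, the Y130A brain was below its WT littermate in 4 of 4 litters for H3f3a and in 4 of 4 for H3f3b. With litter as a block the adjusted p was 0.0997 and 0.0925 (edgeR). In liver, H3f3a was above the WT littermate in 4 of 4 Y130A litters and below it in 4 of 4 S226A litters (adjusted p 0.885 and 0.547 with the block, edgeR).

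**Figure D4:**
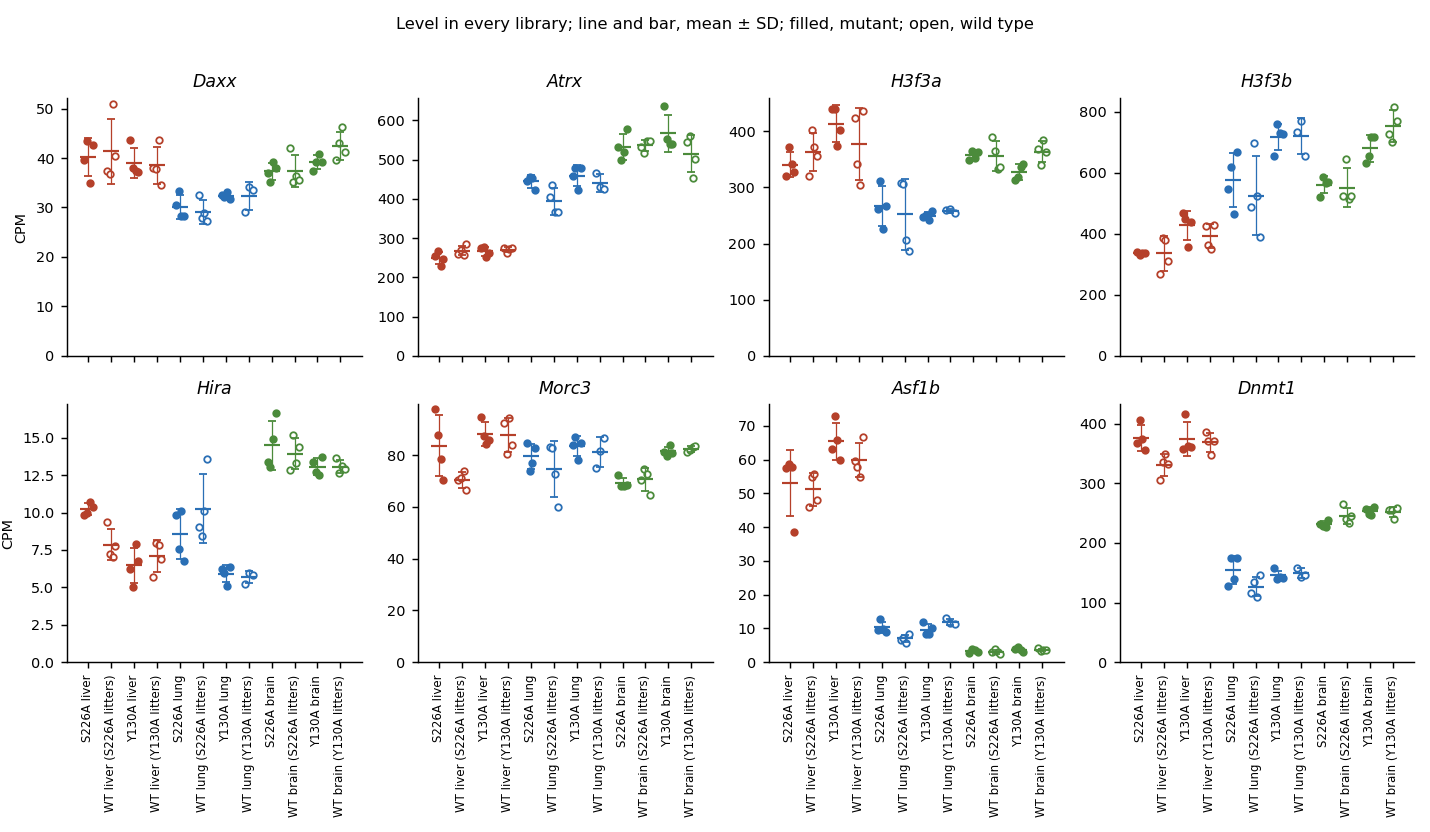
CPM of 8 of the genes in each of the 47 libraries, with the mean ± SD of each group, in liver (red), lung (blue) and brain (green). Filled points are mutants and open points WT. Daxx overlaps between mutant and WT in each tissue, and Asf1b in S226A lung lies above its 4 WT littermates.

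Hira, which deposits H3.3 without Daxx, was higher in each S226A liver than in its WT littermate but was not called (adjusted p 0.263 with litter as a block, edgeR). The values were 9.81, 9.98, 10.7 and 10.3 CPM in S226A livers and 9.34, 7.23, 7.04 and 7.78 in WT. The log2 fold change was 0.38 (95% interval 0.09 to 0.67, adjusted p 0.0846, edgeR). Without WT liver of the S226A litters replicate 1 it was called. Y130A livers had 6.26, 5.04, 7.87 and 6.74 CPM, against 6.88, 5.68, 7.98 and 7.86, lower in 4 of 4 litters (adjusted p 0.924 with the block), and the difference between the alleles was 0.51 (0.10 to 0.92, adjusted p 0.14, edgeR). In S226A lungs the fitted change had the other sign, with 9.86, 7.60, 10.1 and 6.73 CPM against 9.00, 8.40, 10.1 and 13.6 in WT (log2 fold change -0.26, adjusted p 0.37, edgeR). Without WT lung of the S226A litters replicate 4 (13.6 CPM) the change was -0.09 (adjusted p 0.923, edgeR). Y130A lungs had 6.24, 5.95, 5.08 and 6.38 CPM, against 5.24, 5.97 and 5.84. Both lung sets overlapped with their WT. In brain Hira was at 13.4, 13.1, 14.9 and 16.6 CPM in S226A against 12.8, 15.2, 13.3 and 14.4, and at 13.4, 12.7, 12.5 and 13.7 in Y130A against 13.7, 12.6, 13.1 and 12.9, also with overlap. The log2 fold changes of Ubn1, Ubn2 and Cabin1, the partners of Hira, lay between -0.26 and 0.22, and none was called. With litter as a block, Ubn2 in Y130A brain was called (log2 fold change 0.22, adjusted p 0.0381), against an adjusted p of 1.0 without the block.

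Morc3 was the member called in S226A liver. It was at 97.7, 87.7, 78.6 and 70.4 CPM in S226A livers and 70.3, 71.2, 73.7 and 66.6 in WT littermates, which gave 83.6 ± 11.8 and 70.4 ± 2.97 (SD, n = 4). The lowest S226A liver lay inside the WT range, and each S226A liver lay above its WT littermate. The log2 fold change was 0.25 (95% interval 0.09 to 0.41, adjusted p 0.0344, edgeR). With litter as a block the adjusted p was 0.074, and without the 2 livers that held squamous transcripts it was 0.0543. The call was lost in 5 of the 8 fits that left out 1 of these livers (S226A replicates 1 and 2, WT replicates 1, 2 and 4), and without S226A replicate 1 the change was 0.17 (adjusted p 0.211, edgeR). Y130A livers had 94.9, 87.4, 84.2 and 86.1 CPM and their WT littermates 84.01, 92.4, 80.5 and 94.3, and the difference between the alleles was not called (0.24, adjusted p 0.228, edgeR). In lung Morc3 was at 84.6, 73.8, 77.1 and 82.6 CPM in S226A against 83.04, 82.7, 72.7 and 59.9, and at 84.02, 86.95, 78.1 and 84.9 in Y130A against 75.2, 81.6 and 86.6. In brain it was at 72.4, 68.2, 68.1 and 68.3 CPM in S226A against 70.5, 74.8, 72.9 and 64.5, and at 81.1, 79.6, 84.1 and 81.02 in Y130A against 81.4, 81.8, 83.2 and 83.6. All of these overlapped. Between the WT livers, Morc3 was 0.32 log2 units lower in the S226A litters (adjusted p 0.0069, edgeR, and 0.0867 with total counts alone), and the mean of the S226A livers (83.6 CPM) was not above that of the WT livers of the Y130A litters (87.8). S226A livers also differed in blood cell markers. Summed markers of neutrophils and their precursors were 8790 to 9450 CPM, against 3030 to 3600 in WT (8 of 8 genes called higher), and those of macrophages 268 to 374, against 905 to 1060 (7 of 8 called lower). Markers of the B lineage and of endothelium were called lower for 4 of 7 and 2 of 5 genes. The share of mitochondrial reads was 0.67 to 0.725% in S226A livers and 0.788 to 0.876% in WT, without overlap. Their part in the Morc3 value was not tested.

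The other silencing factors were not called in S226A liver. Of Trim28, Setdb1, Setdb2, Atf7ip and the HUSH and Morc genes, 8 in all, Morc3 alone was called. The HP1 gene Cbx5 was at a log2 fold change of -0.17 (95% interval -0.30 to -0.03, adjusted p 0.116, edgeR), and DESeq2 called it (adjusted p 0.0302). The HUSH subunit Mphosph8 was at -0.20 (-0.38 to -0.02), Ubn2 at -0.26 (-0.48 to -0.03) and Pml at -0.30 (-0.62 to 0.01).

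In S226A lung both called members act with DNA replication. Asf1b was at 9.61, 12.8, 9.92 and 9.05 CPM in S226A lungs and 6.71, 7.28, 5.81 and 8.38 in WT littermates, with means of 10.3 ± 1.66 and 7.04 ± 1.08 (SD, n = 4). All S226A lungs lay above all WT lungs. The log2 fold change was 0.55 (95% interval 0.26 to 0.85, adjusted p 0.0357, edgeR). Dnmt1 was at 128, 175, 139.8 and 174 CPM in S226A lungs and 116, 135, 110 and 146 in WT, with overlap but higher in the S226A lung of each litter. Its log2 fold change was 0.28 (0.13 to 0.44, adjusted p 0.0449, edgeR). With litter as a block neither was called (adjusted p 0.388 for Asf1b and 0.38 for Dnmt1). Asf1b lost its call without WT lung of the S226A litters replicate 3 (adjusted p 0.191) or S226A lung replicate 2 (0.213). Dnmt1 lost its call without either of these (0.261 and 0.257), without WT replicate 1 (0.075) or without S226A replicate 4 (0.183).

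Hells, Uhrf1 and the CAF-1 subunits were not called in S226A lung. Hells was at 22.5 ± 4.77 CPM against 16.03 ± 5.20 in WT (SD, n = 4, log2 fold change 0.48, adjusted p 0.103, edgeR). Uhrf1 was at 50.5 ± 13.9 CPM against 36.8 ± 9.89 in WT (SD, n = 4, log2 fold change 0.46, adjusted p 0.119, edgeR). Chaf1b was at 10.5 ± 1.89 CPM against 7.92 ± 1.71 in WT (SD, n = 4, log2 fold change 0.41, adjusted p 0.153, edgeR). Chaf1a was at a log2 fold change of 0.11 (95% interval -0.16 to 0.37, adjusted p 0.768, edgeR). Asf1a, the paralog of Asf1b, was at a log2 fold change of 0.03 (95% interval -0.21 to 0.27). The median change of the 40 genes in S226A lung was 0.09, against 0.00 for all genes, and 16 members (40%) had an unadjusted p below 0.05, as had 16.2% of all genes. Single libraries decided the count of calls. Without WT lung of the S226A litters replicate 2, 11 members were called (8.35% of all genes), among them Sumo2, Hells, Uhrf1, Cbx3 and Suv39h2, and without WT lung replicate 3 or S226A lung replicate 2 there were 0.

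The summed level of the proliferation markers overlapped between S226A lungs and WT, but was higher in the S226A lung of each litter. It was 1140, 1700, 1240 and 1420 CPM in S226A lungs and 1100, 1260, 742 and 1120 in WT littermates. Of the markers, 16 of 16 had a log2 fold change above 0, and 2 were called. The WT lung of the S226A litters with the lowest sum (742 CPM, replicate 3) also had the lowest Asf1b (5.81 CPM) and Uhrf1 (24.8) of its group. The S226A lung with the highest sum (1700 CPM, replicate 2) had the highest Asf1b (12.8) and Uhrf1 (66.5) of its group. Within both of these groups Uhrf1 followed the order of the sums, and Asf1b did not. Among Y130A lungs Uhrf1 did not, with 42.6 CPM in replicate 2 (sum 1150) and 40.2 in replicate 4 (sum 1230). S226A lung replicate 4 had the second highest sum of its group (1420 CPM) with the lowest Asf1b (9.05), and the WT lung with the highest sum (1260 CPM, replicate 2) had less Asf1b (7.28) than replicate 4 (8.38 CPM, with a sum of 1120). Markers of neutrophils and their precursors were 127 to 179 CPM in S226A lungs and 32.5 to 76.2 in WT (4 of 8 called higher). Those of macrophages were 116 to 142 CPM, against 145 to 194 in WT, without overlap (2 of 8 called higher and 2 lower), and 2 of 7 B lineage markers were called lower. Squamous epithelial markers summed to 2.19 to 157 CPM in S226A lungs and 2.79 to 179 in WT. Both of these highest sums were in replicate 2 of the group, and 0 of 6 genes were called. The part of these lists in the values of the members was not tested.

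**Figure D5:**
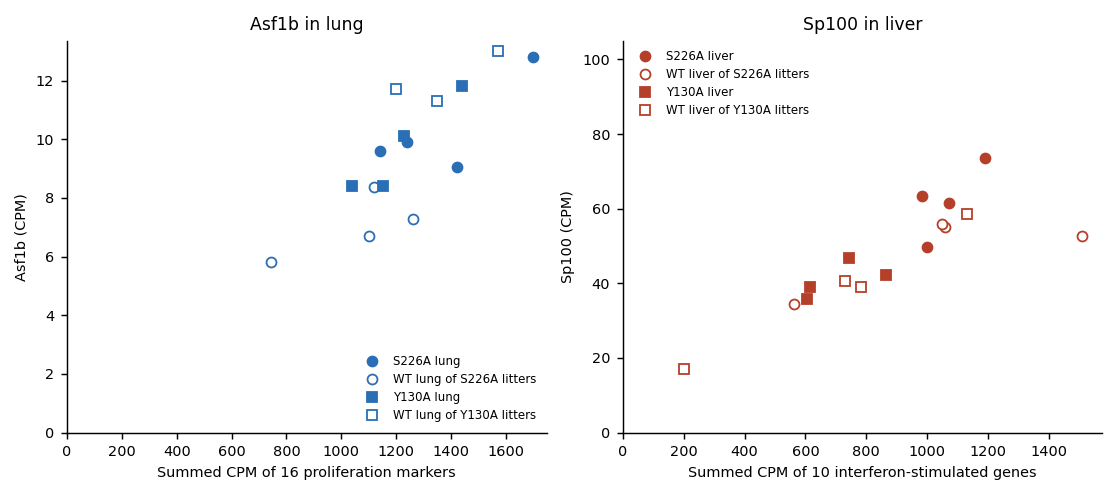
Left, Asf1b (CPM) against the summed CPM of 16 proliferation markers in 15 lungs; right, Sp100 (CPM) against the summed CPM of 10 interferon-stimulated genes in 16 livers. Filled symbols are mutants, open symbols WT, circles the S226A litters and squares the Y130A litters. The 4 WT lungs of the S226A litters have the lowest Asf1b of the 15 lungs, 1 of them just below the lowest Y130A lungs.

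The difference between the alleles was called for 1 member in lung, Asf1b (0.308% of all genes were called). The change in S226A exceeded that in Y130A by 0.86 log2 units (95% interval 0.45 to 1.28, adjusted p 0.0495, edgeR). Asf1b was at 11.8, 8.40, 8.40 and 10.1 CPM in Y130A lungs and 13.00, 11.7 and 11.3 in WT (log2 fold change -0.31, adjusted p 1.0, edgeR). Every WT lung of the Y130A litters lay above every WT lung of the S226A litters. With litter as a block the adjusted p was 0.276, and the call held in 5 of the 15 fits that left out 1 lung (adjusted p 0.0146 to 0.185). It was called for 0 members in liver (5.9% of all genes) and 0 in brain (0.0829%) by edgeR, and for 0 in both by DESeq2, with 2 and 0 members at an unadjusted p below 0.05, against 18.4% and 2.29% of all genes.

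In the other tissues Asf1b and Dnmt1 were not called. Asf1b was at 57.4, 58.7, 57.8 and 38.6 CPM in S226A livers against 45.8, 54.9, 55.8 and 48.1, and at 63.3, 72.8, 65.7 and 59.9 in Y130A livers against 66.7, 59.7, 57.8 and 54.9. In brain it was at 2.87, 3.82, 3.68 and 2.97 CPM in S226A against 2.90, 3.79, 2.89 and 2.52, and at 3.78, 4.43, 3.63 and 2.91 in Y130A against 4.16, 3.26, 3.53 and 3.68. These overlapped in each set. Dnmt1 was at 367, 406, 374 and 356 CPM in S226A livers against 306, 335, 350 and 332. All S226A livers lay above all WT livers, and the log2 fold change was 0.18 (95% interval 0.03 to 0.34, adjusted p 0.123, edgeR). Y130A livers had 358, 417, 363 and 361 CPM of Dnmt1 against 372, 386, 371 and 348, and Y130A lungs 158, 139.6, 143 and 142 against 158, 144 and 147. In brain it was at 232, 229, 227 and 238 CPM in S226A against 265, 240.2, 233 and 245, and at 257, 249, 246 and 260.5 in Y130A against 255, 255, 240.5 and 258, with overlap. The S226A brain was below its WT littermate in each litter, and the Y130A litters went both ways.

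A wider list of 66 genes of the same pathways (histone chaperones, HUSH and H3K9 factors, readers and erasers of DNA methylation, the SUMO pathway and co-repressors) was tested in the same fit. In S226A liver 4 were called higher and 2 lower (9.09% of the list, against 11.7% of all genes), in S226A lung 5 were called, all higher (7.58%, against 1.88%), and elsewhere (S226A brain and the Y130A tissues) 0 were called. In S226A lung they were the H3 chaperone Nasp (0.43 log2 units), the Hira-binding Hirip3 (0.59), the nucleosome assembly protein Nap1l1 (0.23), the FACT subunit Supt16 (0.29) and the SUMO-activating Sae1 (0.29). In S226A liver they were Sp140 (0.95), a relative of Sp100, the DNA methylation factors Cdca7 (0.37) and Zbtb24 (0.39), Sae1 (0.25), Zfp644 (-0.25) and the SUMO ligase Pias2 (-0.24). The difference between alleles was called for Sp140 (1.00) and Supt6 (0.30) in liver (3.03% of the list, against 5.9% of all genes). Leaving out 1 library moved the share of all genes called in S226A lung between 0.793% and 8.35%. Whether the calls of this list held then, or with litter as a block, is not given here.

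The WT littermates of the alleles differed from each other for many members, which limits comparisons across litter sets. In lung, 8 members were higher in WT of the S226A litters (10.8% of all genes) and 11 lower (9.24%). In liver 3 were higher (3.97%) and 3 lower (9.11%), and in brain 0 higher (1.47%) and 3 lower (4.51%). The balance in liver depended on the scaling, with 4 higher (8.49% of all genes) and 0 lower (3.3%) with total counts alone, and 3 higher (5.51% of all genes) and 1 lower (5.23%) with RLE factors. In WT lungs Hira was 0.85 log2 units higher in the S226A litters (8.40 to 13.6 CPM, against 5.24 to 5.97), Sp100 1.39 higher and Pml 0.63 higher. Asf1b was 0.77 log2 units lower there, as were Sumo2 by 0.69, Chaf1b by 0.57, Uhrf1 by 0.56 and Hells by 0.54. In brain the called members were Sumo2 (-0.45), H3f3b (-0.45) and Hdac2 (-0.33). Among the markers in WT lungs, 6 of 16 proliferation markers were called lower in the S226A litters, with 0 above 0, and 3 of 10 interferon-stimulated genes higher, with 10 above 0. Of the lung epithelium markers 3 of 8 were called higher there, and the erythroid, endothelial, macrophage and B lineage lists had 1 gene called higher each, the latter pair also 1 lower each. In WT livers, 2 of 8 macrophage markers were called lower in the S226A litters and 3 of 6 squamous markers higher. The share of mitochondrial reads was 0.26 to 0.401% in WT lungs of the S226A litters and 0.442 to 0.461% in those of the Y130A litters, and 0.456 to 0.536% and 0.667 to 0.757% in WT brains, without overlap in either tissue. The part of the markers and of these shares in the values was not tested. In a fit of only the libraries compared, 1 member was called in lung (1.81% of all genes), 0 in liver (3.65%) and 12 in brain (24.8%). The sets also differ in depth, litters and embryos, which cannot be told apart.

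Sp100, which like Pml is interferon-inducible, was set beside the interferon-stimulated genes in liver. WT liver of the Y130A litters replicate 4 had the lowest Sp100 of the 16 livers (17.1 CPM) and the lowest sum of 10 interferon-stimulated genes (200 CPM, against 561 to 1510 in the others). S226A livers had 49.6 to 73.6 CPM of Sp100 with sums of 983 to 1190. The highest sum of the 16 livers (1510 CPM) was that of WT liver of the S226A litters replicate 3, whose Sp100 (52.7 CPM) was below that of S226A livers replicates 1 to 3 (73.6, 63.3 and 61.5). Y130A liver replicate 1 had a sum of 866 with 42.1 CPM of Sp100, and replicate 3 a sum of 743 with 46.9, so the order of the sums was not that of Sp100. The log2 fold change of Sp100 was 0.33 in S226A liver (95% interval -0.27 to 0.92) and 0.08 in Y130A liver (-0.52 to 0.67), and neither was called. In brain, where its level was low, the intervals were -0.68 to 1.16 in S226A and -1.50 to 0.38 in Y130A, which hold a change of 1 log2 unit. The part of the interferon-stimulated genes in the Sp100 values was not tested.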

How the data were processed

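The study measured RNA by bulk sequencing of liver, lung and brain of E18.5 embryos. The submitters' processing notes name Trim Galore 0.6.5. Per the labels and the study's methods, the authors used FastQC 0.11.5 for quality checks, aligned reads with STAR 2.6.0b to GRCm38 and counted them per gene with it. The deposited values are raw read counts per gene, and the strand setting of the counting is not given in the sources used here. STAR leaves out reads that fall on several genes or map to several places, which lowers members with overlapping genes or copies.

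Genes with low counts were removed (filterByExpr, minimum count 10, minimum total 15), which left 16892. All 47 libraries were fitted together with 1 coefficient per group by edgeR 4.0.16 (quasi-likelihood test, TMM scaling, R 4.3.3), with Benjamini-Hochberg adjustment over all genes tested. The allele difference is the S226A change minus the Y130A change in a tissue. Standard errors are the log2 fold change over the root of F, and intervals are 95%. Per-gene lengths and coordinates are from GENCODE M21. Figures were drawn with Python 3.11.15 and matplotlib 3.10.9.

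The members and lists were chosen with earlier results of these data known. By the rule for named genes, Daxx, Atrx, H3f3a, H3f3b, Hira and each member called in a mutant or between alleles are given in every library (at most 10 of a comparison, by smallest adjusted p), other members by ranges and counts, and pathway genes outside the 40 by counts and by name where called. Mutants and WT embryos of a litter pair the samples by the labels. Of 23 littermate pairs, 18 had a correlation of residuals above 0.1 (median 0.212), against 5 of 69 other pairs (median -0.0614), so litter was tried as a block. Tissues of 1 embryo were fitted as separate libraries, and the embryo was tried as a block between tissues. The other alternatives were DESeq2 1.42.0, RLE factors, no filter, only the libraries compared, and leaving out each library. Total counts alone, and leaving out 2 livers with squamous transcripts, were added after seeing the data. Counts of replicates differed beyond sampling noise in all 69 pairs (chi-square of at least 4.09 per degree of freedom), so that each library counts once. The tests were checked on simulated counts. P-values rest on 1 spread per gene, pooled over all 47 libraries of 3 tissues and both sets of 4 litters. Littermates and tissues of 1 embryo enter it as separate libraries, so it is not the spread of the compared groups alone. Columns were all matched to a sample.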

Additional observations from a re-analysis of the deposited data

Results flagged for a closer look

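The following results stood apart and are given as values. In 7 of the 88 groups of 4 libraries examined for 8 genes, 1 library lay farther from the nearest other than Dixon's 95% critical value allows, and chance alone flags about 1 in 20 groups. Daxx was at 43.6 CPM in Y130A liver replicate 1, one of the livers with squamous transcripts, against 37.1 to 37.9 in the other Y130A livers. In WT brain of the S226A litters, Daxx was at 42.1 CPM in replicate 1, against 35.2 to 36.3. Atrx was at 636 CPM in Y130A brain replicate 1, against 540 to 553. H3f3b was at 646 CPM in WT brain of the S226A litters replicate 2, against 514 to 525. Morc3 was at 72.4 CPM in S226A brain replicate 1, against 68.1 to 68.3. Asf1b was at 38.6 CPM in S226A liver replicate 4, against 57.4 to 58.7, and this liver also had the lowest summed proliferation markers of its group (5260 CPM). Dnmt1 was at 417 CPM in Y130A liver replicate 2, against 358 to 363.

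The change of Asf1b in lung differed between the alleles by 0.86 log2 units (adjusted p 0.0495, edgeR), as described above, with each WT lung of the Y130A litters above each WT lung of the S226A litters.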

How the results depend on the processing

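Counts of members called are given with the share of all genes called in the same fit, except for some counts between WT tissues. In S226A liver there was 1 (11.7%), and 2 with DESeq2 (12.5%) or total counts alone (11.5%), and 0 without the filter (9.16%), in a fit of only the libraries compared (8.28%), with litter as a block (10.7%) or without the 2 livers with squamous transcripts (11%), and 0 to 2 when 1 library was left out (9.56% to 11.1%). In S226A lung there were 2 (1.88%), and 1 with RLE factors (1.97%) or without the filter (1.2%), 0 in a fit of only the libraries compared (0.232%), with litter as a block (0.335%) or with total counts alone (1.62%), and 0 to 11 when 1 library was left out (0.793% to 8.35%). The lung call between alleles (1, Asf1b, 0.308%) became 0 under RLE factors (0.332%), no filter (0.23%), only the libraries compared (0.0781%), the litter block (0.15%) and total counts alone (0.284%), and 0 to 4 when 1 library was left out (0.105% to 1.03%). Beside these losses, the litter block raised Y130A brain from 0 (0.00592%) to 1 (0.634%) and moved no other count of members called. Between liver and brain of WT, 14 members were called (57.7%), and 24 with total counts alone (62.0%). With 1 library left out there were 13 to 14. For liver and lung there were 11 (44.7%), and 13 with total counts alone (50.9% of all genes, with 5 of the 13 among the 11). With 1 library left out there were 11 to 11. For lung and brain there were 9 (49.9%), 9 with total counts alone and 9 to 10 with 1 library left out. The embryo block moved none of the 3 main counts (14, 11 and 9). Between WT litter sets, fitting only the libraries compared gave 0 in liver (3.65%, from 6 and 13.1%), 1 in lung (1.81%, from 19 and 20.1%) and 12 in brain (24.8%, from 3 and 5.98%). Total counts gave 1 in brain (4.88%) and 4 in liver (11.8%), all 4 higher in the S226A litters. Leaving out 1 library gave 2 to 9 in liver (6.97% to 17.1%), 12 to 22 in lung (13.4% to 24.9%) and 0 to 3 in brain (1.99% to 4.98%). For the 66 calls of single members, most of them between WT tissues or litter sets, 1101 of the recomputed values kept the call, 135 lost it and 0 changed direction. The mutant calls held less often. Morc3 in S226A liver kept its call in 6 of 15 alternatives, Asf1b in S226A lung in 9 of 14 and Dnmt1 there in 5 of 14. The allele difference of Asf1b in lung kept it in 6 of 21. Members not called are not in these counts, and some gained a call, such as Hira in S226A liver without 1 WT liver and Ubn2 in Y130A brain with the litter block. With total counts, 16 of the 40 members changed sign between liver and lung and 11 between liver and brain. The cause of these shifts was not tested. Sp100 in brain and Suv39h2 in lung had the lowest median levels in WT of the 40 genes. Their standard errors in the S226A and the deeper Y130A litters were 0.457 and 0.468 for Sp100, and 0.235 and 0.233 for Suv39h2. The fit shares 1 spread per gene over all groups, so these values cannot show whether the spread differed between the sets. The part of depth in them was not tested.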
